A study of Mus musculus with 6 samples.

Results

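The liver makes most of the proteins that carry small molecules in plasma. Examined here were 10 of the 55487 genes in the count table, chosen by name with earlier results of these data known. They were the albumin family (Alb, Afp, Afm and Gc) and 6 plasma carriers or fetuins (Ttr, Rbp4, Serpina6, Apoh, Ahsg and Fetub). The proteins of these 6 are known to fall in inflammation or belong to the same families. All 10 were among the 14046 genes that passed the filter on low counts and were tested. Livers came from wild-type male C57BL/6J mice on normal chow, 3 given subcutaneous GalNAc-siNC and 3 given subcutaneous GalNAc-siRnf10, and were collected at 17 weeks of age. GalNAc-siNC is a control siRNA on the same ligand, and GalNAc-siRnf10 (named GalNAc-siRnf10-2 in the paper) is an siRNA against Rnf10, a RING finger ubiquitin ligase. The GalNAc ligand binds the asialoglycoprotein receptor of hepatocytes, so both groups received hepatocyte-directed siRNA and neither was left untreated. The comparison asks which liver transcripts differ between mice given these siRNAs. Their sequences differ, so here the loss of Rnf10 and other effects of either sequence cannot be told apart. From RNA-seq of such livers, the paper reported no strong off-target effects on genes.

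Albumin is the main protein of plasma, where it holds water in the circulation and carries fatty acids, bilirubin and drugs. Its family arose by gene duplication and lies on mouse chromosome 5: alpha-fetoprotein (Afp) is the fetal counterpart that is silenced after birth, afamin (Afm) carries vitamin E, and Gc is the vitamin D-binding protein. Transthyretin (Ttr) carries thyroxine and holds retinol-binding protein (Rbp4) in the circulation, and Serpina6 is the corticosteroid-binding globulin. In an acute phase response, hepatocytes raise one set of plasma proteins, such as serum amyloid A, and lower another, the negative acute phase proteins, of which albumin and transthyretin are the textbook examples.

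The stretches just upstream of the 4 albumin family genes, which are related and lie on 1 chromosome, are shown. They come from RefSeq on build GRCm38.p6, are written 5′ to 3′ on the strand of the gene and end at or shortly before its annotated start. The capitals mark the pattern TTANNTAA, a loose form of sites bound by PAR-bZIP transcription factors such as DBP. A capital stretch need not be such a site, and sites of these factors with other letters are not marked. Another pattern that was searched, described below, is not marked. Whether either pattern bears on the differences between the groups was not tested.
Alb (chr5:90460620-90460869, plus strand): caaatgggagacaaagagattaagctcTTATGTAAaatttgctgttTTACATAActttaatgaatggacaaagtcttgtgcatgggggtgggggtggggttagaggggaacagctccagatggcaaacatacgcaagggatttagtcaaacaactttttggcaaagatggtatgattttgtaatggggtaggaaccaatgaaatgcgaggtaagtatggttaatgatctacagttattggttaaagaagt
Afp (chr5:90490464-90490713, plus strand): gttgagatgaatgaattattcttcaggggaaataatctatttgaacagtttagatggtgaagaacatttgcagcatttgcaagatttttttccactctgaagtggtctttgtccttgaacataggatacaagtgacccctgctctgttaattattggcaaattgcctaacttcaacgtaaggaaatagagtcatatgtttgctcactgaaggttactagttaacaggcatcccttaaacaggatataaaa
Afm (chr5:90518699-90518931, plus strand): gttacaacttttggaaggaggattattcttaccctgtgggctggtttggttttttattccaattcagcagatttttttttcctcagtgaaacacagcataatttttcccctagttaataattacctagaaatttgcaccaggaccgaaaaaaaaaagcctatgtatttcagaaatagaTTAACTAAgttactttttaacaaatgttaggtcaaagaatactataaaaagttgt
Gc (chr5:89457899-89458148, minus strand): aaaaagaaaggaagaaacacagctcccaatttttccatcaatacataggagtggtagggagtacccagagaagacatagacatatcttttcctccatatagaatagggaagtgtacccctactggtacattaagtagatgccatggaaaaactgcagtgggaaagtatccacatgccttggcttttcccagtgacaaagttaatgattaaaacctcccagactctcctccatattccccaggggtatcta

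Of the 10 genes, 8 had at least 1 RefSeq window, with 10 windows of 250 bases before a start in all, and Ttr and Serpina6 were not in the table. The PAR-bZIP pattern reads the same on both strands. It began 223 and 204 bases before the start in Alb and 72 bases before it in Afm. No window of the other 6 genes held it. That is 2 of the 10 windows, against 5.43% of the 32851 windows of all genes. The middle letters of the pattern are free, and those of the match in Afm (TTAACTAA) differ from those in Alb (TTATGTAA and TTACATAA). On either strand, the pattern TTNCNNAAT, bound by C/EBP factors, was found in Alb, Ahsg and Fetub. This was 3 of the 10 windows, against 10.8% of all windows. None of these matches overlapped another. A match describes the letters only, and binding was not measured.

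Total counts were between 28430868 and 33058645 per GalNAc-siNC–treated mouse and between 26854377 and 31621131 per GalNAc-siRnf10–treated mouse, and all 6 libraries carried the same batch label. Rnf10 itself fell from 3869, 4536 and 4040 normalized counts to 1738, 1820 and 1793, a log2 fold change of -1.22 (SE 0.0715). GalNAc-siNC mouse 1 stood apart from the other mice of its group. Over the 3512 genes averaging 1000 or more normalized counts, its median log2 difference from mice 2 and 3 was -0.13 in the short tercile of gene length (up to 3266 bases) and 0.10 in the long tercile. Ttr and Rbp4, where it mattered most, are given with and without it below.

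Of the 10 genes, 7 were higher in GalNAc-siRnf10–treated mice, 0 were lower and 3 were not called (edgeR quasi-likelihood F-test, Benjamini-Hochberg adjusted p under 0.05). Among all tested genes, 14.0% were called, 6.71% higher and 7.28% lower. Because the 10 genes were chosen with earlier results of these data known, this comparison is descriptive and does not test the set. The 7 were Alb, Afm, Ttr, Rbp4, Serpina6, Apoh and Ahsg, and the other 3 were Afp, Gc and Fetub. At an unadjusted p under 0.05, edgeR also gave 7 higher and 0 lower, whereas DESeq2 called 6 higher and 0 lower and limma voom 7 higher and 0 lower. The median log2 fold change of the 10 genes was 0.30, and that of all tested genes was 0.0022. The values of the groups did not overlap in the 7 called genes, with all GalNAc-siRnf10–treated mice on the higher side, which held for 16.5% of all tested genes.

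**Figure D1:**
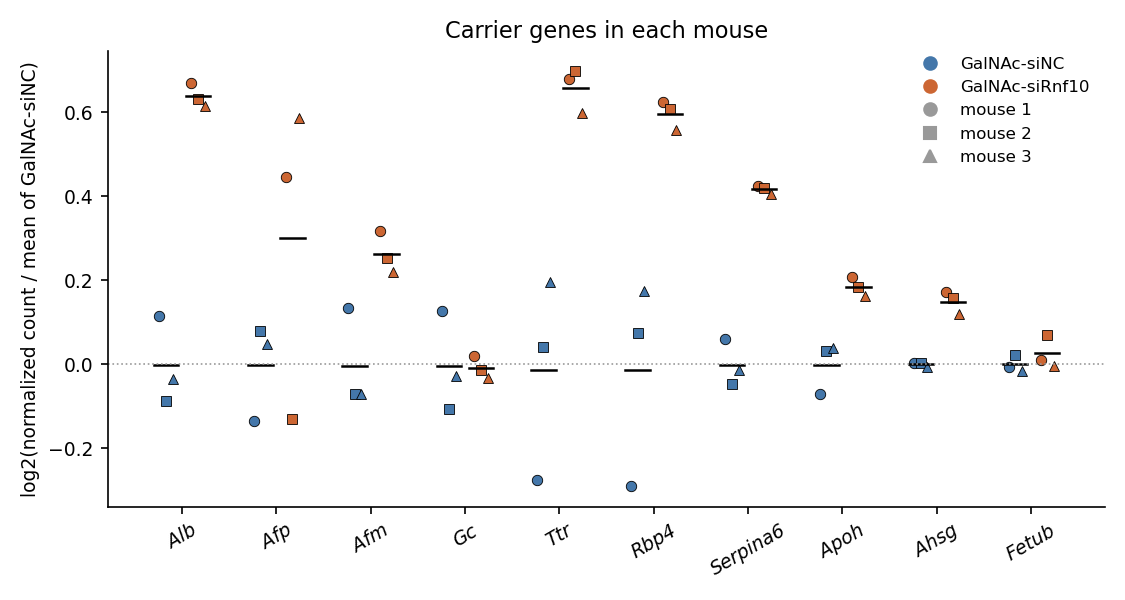
The y axis gives the log2 ratio of the normalized count in each mouse to the mean of the GalNAc-siNC–treated mice for the 10 genes on the x axis. Blue symbols are GalNAc-siNC–treated and orange symbols GalNAc-siRnf10–treated mice, symbol shapes give the mouse number and bars the mean of the log2 ratios (n = 3). The groups are separate in 7 genes and overlap in Afp, Gc and Fetub, and GalNAc-siNC mouse 1 is lowest of its group in Ttr and Rbp4.

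Alb (ENSMUSG00000029368, GRCm38 chr5:90460897-90476602, plus strand) was the most abundant transcript per kilobase of the table. The 3 GalNAc-siNC–treated mice had 1255050, 1090450 and 1131630 normalized counts, and the 3 GalNAc-siRnf10–treated mice had 1844440, 1796770 and 1775490. Every GalNAc-siRnf10–treated mouse was above every control, and the means were 1159040 ± 85656 and 1805570 ± 35307 (SD, n = 3). The log2 fold change was 0.64 (SE 0.0515, 95% interval 0.53 to 0.75, edgeR adjusted p = 1.4e-07), which is a rise of 55.8%. Alb was called under all 18 alternatives, with log2 fold changes from 0.56 to 0.70. In the exact two-sided permutation test of a single gene, 3 mice against 3 cannot give a p below 0.1, and Alb had p = 0.1.

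As a share of all counts, Alb took 4.36%, 3.72% and 3.83% of the GalNAc-siNC libraries and 6.08%, 5.94% and 5.93% of the GalNAc-siRnf10 libraries. The mean shares were 3.97% ± 0.343 and 5.98% ± 0.0813 (SD, n = 3), a difference of 2.01 percentage points (exact permutation p = 0.1). The 95% Wilson interval of every one of these shares lay within 0.00905 percentage points of its value, which covers counting error only. The 10 genes together took 6.16% ± 0.350 and 8.49% ± 0.109 of the counts (SD, n = 3). The share of the other 9 genes was 2.19% ± 0.0351 and 2.51% ± 0.0354, a difference of 0.315 percentage points. A larger share of Alb lowers the share left for every other gene, and with the 10 genes left out of the library sizes the same number of them, 7, was called higher.

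**Figure D2:**
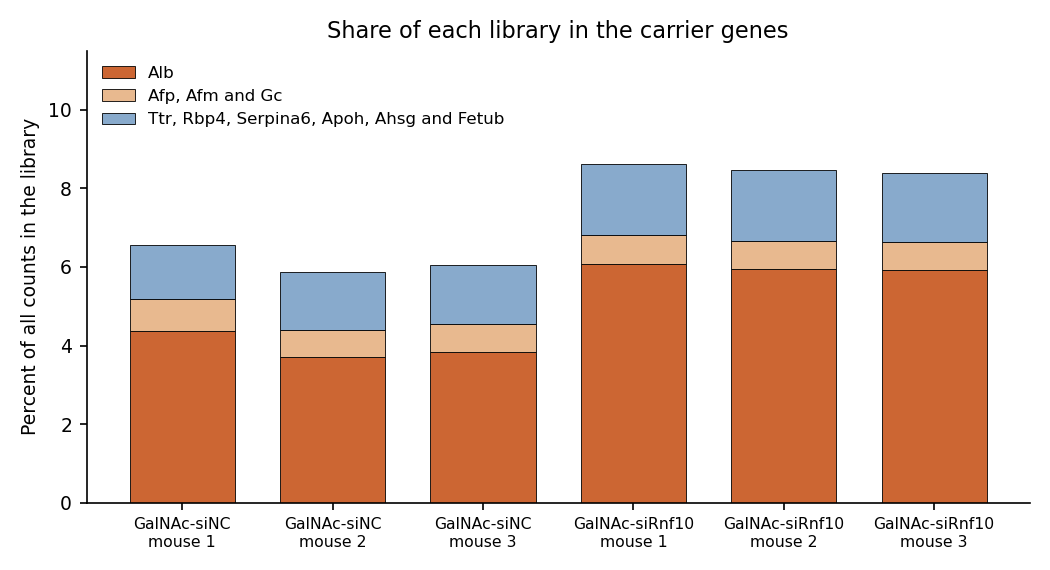
Stacked bars give the percent of all counts of each library (y axis) in Alb, in the other albumin family genes and in the 6 other genes for the 6 mice on the x axis. The total runs from 5.87% to 6.55% in GalNAc-siNC–treated and from 8.40% to 8.61% in GalNAc-siRnf10–treated mice, and most of the gain is in the Alb segment.

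In whole liver RNA, a change in the number of hepatocytes and a change in RNA per hepatocyte cannot be told apart. The labelled tissue matched its markers, with all 8 hepatocyte markers (such as Cps1 and Apob) detected. Of these, 6 were higher and 0 lower, or 75.0% called beside 14.0% of all tested genes (also 6 and 0 by unadjusted edgeR, DESeq2 and limma voom). The summed level of the 8 was 20500 to 22300 CPM in GalNAc-siNC–treated and 26000 to 26300 CPM in GalNAc-siRnf10–treated mice. Sums for the other cell types, in the same order, were 147 to 168 and 151 to 158 CPM for 6 Kupffer cell markers (0 called), 57.0 to 58.4 and 58.2 to 60.8 CPM for 5 endothelial markers (2 higher), and 87.0 to 90.6 and 99.8 to 101 CPM for 5 stellate cell markers (2 higher and 3 not called, with a median log2 fold change of -0.20). The 5 cholangiocyte markers summed to 69.3 to 70.6 and 37.5 to 38.2 CPM with 1 called lower, Spp1, which other liver cells also make. Neutrophil markers summed to 1.09 to 2.31 and 0.696 to 0.711 CPM (1 of 1 tested was lower, S100a9), lymphocyte markers to 0.938 to 1.54 and 1.07 to 1.42 CPM (0 of 2 called) and erythroid markers to 267 to 336 and 291 to 317 CPM (0 of 5 called). For the lists with 0 called, 1 Kupffer cell marker was lower at an unadjusted p under 0.05 and no lymphocyte or erythroid marker was, and DESeq2 and limma voom called none. No marker was at 0 in every library. The part of the cell make-up in the differences of the carriers was not tested.

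Within the albumin family the genes did not move alike. Afm (ENSMUSG00000029369, chr5:90518932-90553543, plus strand), which carries vitamin E, had 5516, 4788 and 4785 normalized counts in GalNAc-siNC–treated mice and 6269, 5995 and 5856 in GalNAc-siRnf10–treated mice. The groups did not overlap, although GalNAc-siNC mouse 1 lay nearer to the lowest treated mouse than to the other controls. The log2 fold change was 0.26 (SE 0.0666, 95% interval 0.12 to 0.41, edgeR adjusted p = 0.0128). When each mouse was left out in turn, Afm lost its call in 4 of the 6 fits, with adjusted p = 0.0659 without GalNAc-siNC mouse 3 and 0.109, 0.0639 and 0.0520 without GalNAc-siRnf10 mice 1, 2 and 3.

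Gc (ENSMUSG00000035540, chr5:89417522-89457898, minus strand), the vitamin D-binding protein, had 229957, 195604 and 206609 normalized counts in GalNAc-siNC–treated mice and 213495, 208588 and 205824 in GalNAc-siRnf10–treated mice. The groups overlapped, with the highest and the lowest value both in controls. The log2 fold change was -0.0098 (SE 0.0559, 95% interval -0.13 to 0.11, edgeR adjusted p = 0.935). Gc was called lower under 1 of the 18 alternatives, the correction for GC content and gene length combined with the replicate number as a block, with a log2 fold change of -0.15 and an adjusted p of 0.0457.

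Afp (ENSMUSG00000054932, chr5:90490737-90508907, plus strand), the fetal albumin, had the lowest level of the 10 genes. The raw counts were 92, 90 and 92 in GalNAc-siNC–treated mice and 106, 84 and 124 in GalNAc-siRnf10–treated mice, or 80.1, 92.8 and 90.9 against 119.8, 80.3 and 132.1 after normalization. GalNAc-siRnf10 mouse 2 lay within the range of the controls and the other 2 treated mice lay above it. The log2 fold change of 0.33 (SE 0.201, 95% interval -0.097 to 0.75) did not pass the test (edgeR adjusted p = 0.321), and its interval includes both 0 and the log2 fold change of Alb.

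Ratios between genes within a library do not depend on the scaling of that library. Per kilobase of gene model, the log2 ratio of Gc to Alb was -2.10, -2.13 and -2.11 in GalNAc-siNC–treated mice and -2.77, -2.76 and -2.76 in GalNAc-siRnf10–treated mice. The ratio thus varied little within a group, with SDs of 0.0164 and 0.00212 (n = 3), and fell by 0.65 on the log2 scale. Alb went from 4.33 to 6.80 times the level of Gc per kilobase. The log2 ratio of Afm to Alb was -8.21, -8.21 and -8.26 in controls and -8.58, -8.60 and -8.62 in treated mice, a fall of 0.38. Both ratios were lower in every treated mouse than in every control. That of Afp to Alb overlapped between groups, with a difference of -0.34 and an exact permutation p of 0.3. The exact permutation p was 0.1 for each of the other 4 of the 5 ratios computed, and 0.125 after Benjamini-Hochberg adjustment over the 5.

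**Figure D3:**
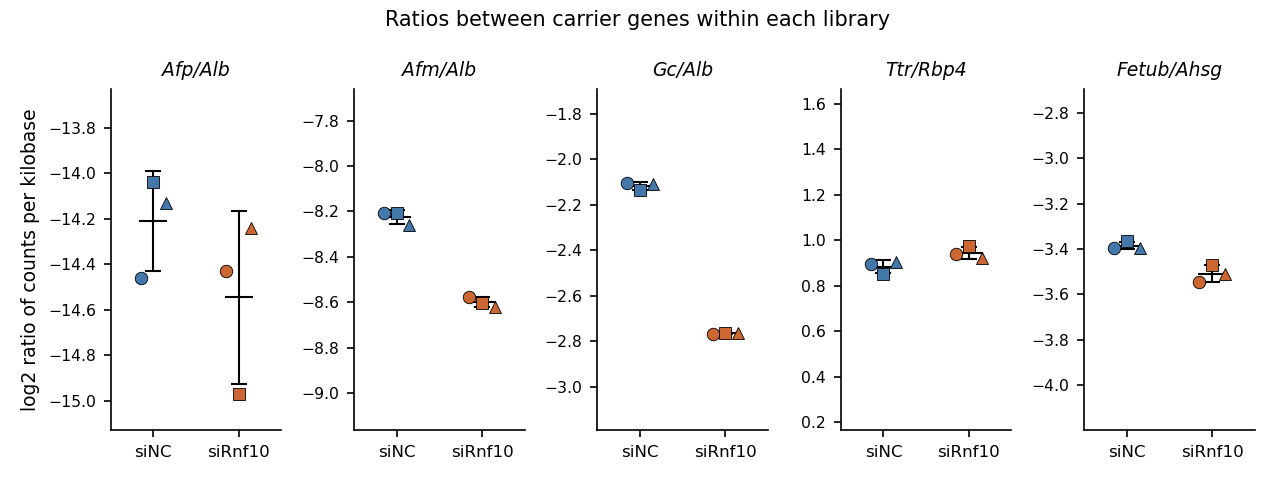
Each panel gives the log2 ratio of counts per kilobase between a pair of genes (y axis, the same span of log2 units in every panel) in the 3 GalNAc-siNC–treated (siNC, blue) and 3 GalNAc-siRnf10–treated (siRnf10, orange) mice, with bars for the mean ± SD. The Gc to Alb ratio falls by 0.65 with little spread, the Ttr to Rbp4 ratio moves by 0.061, and only the Afp to Alb ratio overlaps between the groups.

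Ttr (ENSMUSG00000061808, chr18:20665280-20674321, plus strand) and Rbp4 (ENSMUSG00000024990, chr19:38116629-38125281, minus strand) encode proteins that circulate as a complex. Ttr had 80178, 99939 and 111310 normalized counts in GalNAc-siNC–treated mice and 155460, 157508 and 147001 in GalNAc-siRnf10–treated mice. Rbp4 had 48778, 62829 and 67268 in the former and 91880, 90797 and 87789 in the latter. In both genes every treated mouse was above every control, and GalNAc-siNC mouse 1 was the lowest of all 6.

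The log2 fold change was 0.66 for Ttr (SE 0.117, 95% interval 0.38 to 0.94, edgeR adjusted p = 0.0138) and 0.60 for Rbp4 (SE 0.115, 95% interval 0.32 to 0.87, edgeR adjusted p = 0.0169), or rises of 57.8% and 51.2%. GalNAc-siNC mouse 1 lay below the other controls by -0.40 in Ttr and -0.41 in Rbp4 on the log2 scale, and the coefficients of variation in the controls were 16.2% for both genes. Without this mouse the log2 fold changes were 0.54 and 0.47, with edgeR adjusted p = 2.03e-13 and 1.73e-12. Without GalNAc-siNC mouse 2 they were 0.68 and 0.63, and neither passed the test (edgeR adjusted p = 0.114 and 0.112). With GalNAc-siNC mouse 1 left out and the correction for GC content and gene length applied, an alternative chosen after seeing the data, the value for Ttr was 0.38 and that for Rbp4 0.49, both called.

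The ratio of Ttr to Rbp4 moved far less than either gene. On the log2 scale per kilobase it was 0.90, 0.85 and 0.91 in controls and 0.94, 0.97 and 0.92 in treated mice, a difference of 0.061 with no overlap. Ttr thus stood at 1.84 times the level of Rbp4 in controls and 1.93 times in treated mice. The direction of this small difference depended on the processing. With the correction for GC content and gene length, the log2 fold change was 0.46 for Ttr and 0.52 for Rbp4, the reverse order.

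Serpina6 (ENSMUSG00000060807, chr12:103646630-103657212, minus strand), the carrier of corticosterone in mouse plasma, had 5020, 4662 and 4769 normalized counts in GalNAc-siNC–treated mice and 6464, 6441 and 6380 in GalNAc-siRnf10–treated mice. The treated mice were tightly grouped above the controls, with a coefficient of variation of 0.676%. A smaller spread in treated mice was common in the series. It held for 85.5% of the 3512 genes averaging 1000 or more normalized counts. Their median coefficient of variation was 7.23% in controls and 3.01% in treated mice. The log2 fold change was 0.42 (SE 0.0578, 95% interval 0.29 to 0.54, edgeR adjusted p = 8.56e-05), and the gene was called under all 18 alternatives, with values from 0.29 to 0.45.

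Apoh (ENSMUSG00000000049, chr11:108343354-108414396, plus strand), or beta-2-glycoprotein I, binds anionic phospholipids in plasma. It had 44188, 47446 and 47647 normalized counts in GalNAc-siNC–treated mice and 53596, 52695 and 51990 in GalNAc-siRnf10–treated mice. The groups did not overlap, and the rise was 13.6% (log2 fold change 0.18, SE 0.0505, 95% interval 0.078 to 0.29, edgeR adjusted p = 0.0205). The correction for GC content and gene length took the value to 0.037 (edgeR adjusted p = 0.592), and leaving out GalNAc-siRnf10 mouse 1, 2 or 3 gave adjusted p = 0.146, 0.119 and 0.0970.

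The fetuins are a pair of related liver glycoproteins encoded side by side on chromosome 16. Ahsg (ENSMUSG00000022868, chr16:22891277-22899449, plus strand), or fetuin-A, binds calcium phosphate and limits mineral deposits in soft tissue. It had 199570, 199534 and 198214 normalized counts in GalNAc-siNC–treated mice and 224190, 221933 and 216369 in GalNAc-siRnf10–treated mice. The controls lay within a coefficient of variation of 0.388%, below every treated mouse, and the log2 fold change was 0.15 (SE 0.0446, 95% interval 0.055 to 0.24, edgeR adjusted p = 0.0333). This was the smallest called difference of the 10 genes, and it was called under 8 of the 18 alternatives, with adjusted p up to 0.212.

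Fetub (ENSMUSG00000022871, chr16:22918334-22939778, plus strand), or fetuin-B, inhibits a protease of the egg and is needed for female fertility. It had 16950, 17291 and 16830 normalized counts in controls and 17138, 17878 and 16983 in treated mice. The groups overlapped, and the log2 fold change of 0.026 (SE 0.0515, 95% interval -0.083 to 0.13) did not pass the test (edgeR adjusted p = 0.795). The log2 ratio of Fetub to Ahsg per kilobase was -3.39, -3.37 and -3.40 in controls and -3.55, -3.47 and -3.51 in treated mice, lower in every treated mouse, with a difference of -0.12.

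**Figure D4:**
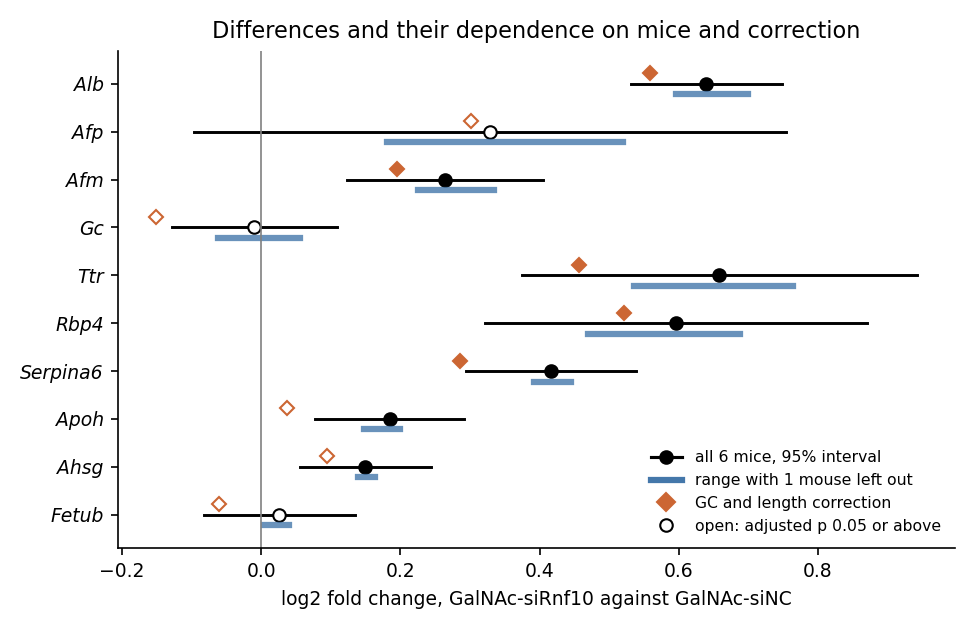
The x axis gives the log2 fold change of the 10 genes on the y axis. Circles with black lines are the estimate from all 6 mice with its 95% interval, blue bars the range with 1 mouse left out, and orange diamonds the value after correction for GC content and gene length. Open symbols have an edgeR adjusted p of 0.05 or above. The 7 called genes lie above 0 under every setting drawn, and the diamonds of Apoh and Ahsg are open.

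As RPKM, normalized counts per kilobase of gene model scaled to a common library size, the order of levels in controls was Alb (16681 ± 1233), Gc (3850 ± 320.5), Ahsg (3055 ± 11.9), Ttr (2761 ± 448), Rbp4 (1496 ± 242), Apoh (982 ± 41.1), Fetub (292 ± 4.11), Serpina6 (92.2 ± 3.52), Afm (55.8 ± 4.67) and Afp (0.880 ± 0.0687), each SD over n = 3. Among these neighbours only Ahsg and Ttr overlapped, since Ttr ran from 2279 to 3164 and Ahsg from 3041 to 3062. In treated mice Ttr (4358 ± 158, SD, n = 3) stood above Gc (3824 ± 71.0) and Ahsg (3388 ± 61.8), and these 3 did not overlap. The remaining order was the same in both groups. Alb was the transcript of highest RPKM over the 6 mice, Gc ranked 16, Ttr 18, Ahsg 19 and Afp 9672 of the tested genes.

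**Figure D5:**
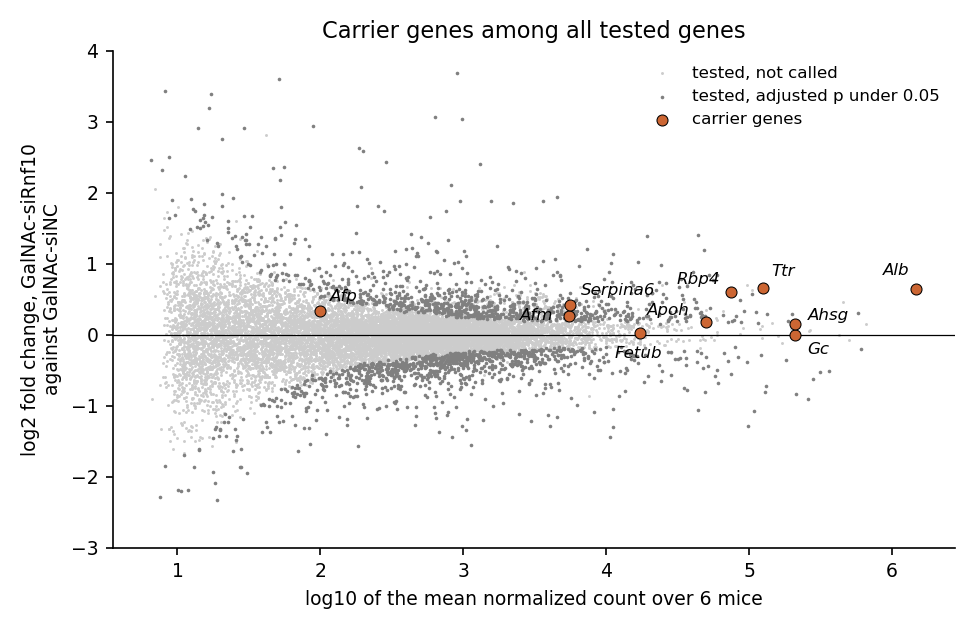
Each point is a tested gene, with log10 of its mean normalized count over 6 mice on the x axis and its log2 fold change on the y axis. Called genes are dark grey and the 10 carrier genes orange. The axis spans -3 to 4 and leaves out 2 genes. Alb, Ttr and Rbp4 lie at the abundant end of the plot and above 0.6 or close to it, while Gc, of similar abundance to Ahsg, lies at 0.

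Exons of Afm, Apoh and Ahsg share bases with an exon of a gene on the opposite strand, and it is not stated whether the counting used the strand. The overlap was 108 bases (3.55%) of Afm with Gm42109, 30 bases (1.88%) of Apoh with Prkca and 62 bases (2.82%) of Ahsg with Gm30505. The overlapping genes had 7 to 14, 164 to 293 and 23 to 61 counts per library. These counts do not give the number of reads in the shared bases. The part of the overlap in the differences of Afm, Apoh and Ahsg was not tested.

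Neighbouring genes were examined within 200 kb of each gene and, for the albumin family, also anywhere between Gc and Afm. Alb lies 14134 bases before Afp and Afp 10024 bases before Afm, and Gc is 1002998 bases from Alb. Of 18 neighbours of the albumin family, 9 were tested and 0 called by edgeR, with 1 lower at an unadjusted p under 0.05, 0 called by DESeq2 and 1 called higher by limma voom. Ahsg and Fetub are 18884 bases apart, and 4 of their 9 tested neighbours (of 22) were called, beside 14.0% of all genes. The kininogens, precursors of bradykinin, were lower, Kng1 by -0.17 (edgeR adjusted p = 0.0247) and Kng2 by -0.20 (edgeR adjusted p = 0.0181), which are near-identical genes whose reads may have been split between them. Dnajb11, an endoplasmic reticulum chaperone, was lower by -0.39 (edgeR adjusted p = 6.56e-04), and Eif4a2, a translation initiation factor, was higher by 0.27 (edgeR adjusted p = 0.00399).

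Of 12 other plasma proteins known to fall in inflammation, all tested, 2 were higher and 2 lower. This was 33.3% called, beside 14.0% of all tested genes, and the median log2 fold change was 0.033. Pon1, the paraoxonase of high-density lipoprotein, was higher by 0.37 (edgeR adjusted p = 1.57e-04) and Igf1, the main endocrine growth factor of the liver, by 0.22 (edgeR adjusted p = 0.0125). Serpina7, the thyroxine-binding globulin, had 404, 363 and 355 normalized counts in controls and 264, 233 and 268 in treated mice. It fell by 0.55 on the log2 scale (edgeR adjusted p = 0.00329), so the plasma carriers of thyroxine Ttr and Serpina7 differed in opposite directions, and Trf, the iron carrier transferrin, fell by 0.20 (edgeR adjusted p = 0.00408). These counts changed with the correction for GC content and gene length, to 4 higher and 4 lower.

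Of 20 positive acute phase genes, on a list also chosen with earlier results known, 18 were lower and 0 higher, with a median of -0.80. The share called was 90.0%, beside 14.0% of all tested genes. At an unadjusted p under 0.05, 1 was higher, and DESeq2 and limma voom each called 1 higher. The log2 fold changes were -1.44 for Lcn2, -1.30 for Orm2 and -1.29 for Saa2, and Crp and Hamp were not called. Orm2 and Saa2 have close paralogs, so their counts are uncertain to that extent.

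Partners of the carriers were also read from a list, of which 14 of 15 genes were tested (Vdr was not). Of these, 3 were higher and 1 lower (28.6% called, beside 14.0% of all tested genes), with a median of -0.026. Hsd11b1, which regenerates active glucocorticoid inside hepatocytes, was higher by 0.33 (edgeR adjusted p = 4.08e-04), B2m, the light chain shared by MHC class I and the albumin-recycling receptor FcRn, by 0.26 (edgeR adjusted p = 0.00543) and Cyp27a1, a sterol hydroxylase that also acts on vitamin D, by 0.21 (edgeR adjusted p = 0.0127). Stra6l, a hepatic receptor for retinol-binding protein, fell by 0.28 (edgeR adjusted p = 0.00356).

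Of 16 transcription factors known to act on the albumin genes, 2 were lower and 0 higher. This was 12.5% called, near the 14.0% of all tested genes, and the median log2 fold change was 0.00545. By unadjusted p (under 0.05) edgeR gave 2 higher and 3 lower, and DESeq2 and limma voom each called 1 higher and 2 lower. Foxa1 fell by 0.81 (edgeR adjusted p = 1.16e-05) and Foxa2 by 0.53 (edgeR adjusted p = 0.00135). The PAR-bZIP factors, named above for the pattern in capitals, gave 0.25 for Dbp, -0.024 for Hlf and 0.12 for Tef, with edgeR adjusted p = 0.532, 0.873 and 0.189. After the correction for GC content and gene length, 4 of the 16 were called higher.

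The profile of Alb over the 6 libraries was compared with those of 3511 other genes averaging 1000 or more normalized counts, as the root mean square difference of centred log2 normalized counts. The most alike were Elovl6 (0.0271), a fatty acid elongase, Cyp2c54 (0.0272), G6pc (0.0307), the catalytic subunit of glucose-6-phosphatase, Fmo5 (0.0358) and Ugt2b36 (0.0365). Cyp2c54 and Ugt2b36 belong to gene families with near-identical members, so their counts are uncertain. Among the 10 genes, Serpina6 ranked 69 in likeness to Alb, Afm 216, Ttr 238, Rbp4 249, Apoh 576, Ahsg 639, Fetub 1569 and Gc 1680.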

How the data were processed

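Bulk liver RNA was measured in 3 GalNAc-siNC–treated and 3 GalNAc-siRnf10–treated mice, grouped by their labels, with 1 library each and no pooling. The authors deposited raw counts per gene, without normalization, from paired-end reads of stranded mRNA libraries mapped to GRCm38 with HISAT2, and a column of gene lengths in bases. The counting tool, annotation release and strand setting are not given in the sources used here, and the submitters' processing notes also name DESeq2. Total counts were 26854377 to 33058645 per library. The same-numbered mice are different animals.

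Of 55487 identifiers, 55141 matched a symbol. After filterByExpr, 14046 genes were fitted with edgeR 4.0.16 under R 4.3.3 (TMM, robust quasi-likelihood F-test, treatment as the only covariate), with Benjamini-Hochberg adjustment and a threshold of 0.05. The biological coefficient of variation was 9.28%. Normalized counts are counts scaled by TMM library sizes. Levels between genes are RPKM or counts per kilobase. Intervals of 95% for fold changes used the edgeR degrees of freedom. Single values were tested by the exact two-sided permutation test in Python 3.11.15 with scipy 1.17.1. Figures were drawn with matplotlib 3.10.9. The edgeR step was tested on simulated data, where unchanged genes made up more of the calls than the threshold states.

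Promoter windows of 250 bases before the start came from RefSeq (GRCm38.p6), and bases in an exon of the count table were left off the printed sequences. Some transcription factors and their motif are not reported here.

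The members and gene lists were chosen with earlier results of these data known. The genes named are all 10 members, Rnf10, every called transcription factor and the 5 genes most like Alb. Also named are, of each other list, the 3 called genes that changed most among those averaging 50 or more normalized counts. Called neighbours within 200 kb, or between Gc and Afm, are named as well. Trf, Cyp27a1, Crp, Hamp, Spp1, S100a9, Vdr, Dbp, Hlf and Tef were named after their values were seen.

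The alternatives were RLE, upper-quartile and total-count scaling, no filter on low counts, at least 10 counts in every library, DESeq2 1.42.0, limma 3.58.1 voom with quality weights, a block for the replicate number, GC content and length offsets (splines with 5 degrees of freedom each) with and without that block, the members left out of library sizes, a threshold of 0.01, and each mouse left out in turn. Leaving out GalNAc-siNC mouse 1 together with those offsets was added after seeing the data.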

Additional observations from a re-analysis of the deposited data

How the results depend on the processing

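No called difference changed direction. Alb and Serpina6 were called under all 18 alternatives. Apoh was not called with total counts only (0.14), the GC content and gene length correction (0.037), the same with the replicate block (0.037) or that correction without GalNAc-siNC mouse 1 (0.047). Ahsg was not called with the upper quartile (0.14), total counts only (0.10), DESeq2 (0.15), the replicate block (0.15, adjusted p = 0.0576 by edgeR), the correction (0.094) or the correction with the block (0.097). Gc was called lower with the correction and the block (-0.15), which made 1 member lower. The cause was not tested.

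The replicate numbers did not pair the mice: deviations of same-numbered libraries correlated by -0.00099, 0.027 and -0.034, and 2 of 6 libraries correlated best with their own number. The block gave 1816 calls against 1965 and changed no member call but that of Ahsg.

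With total counts only, which moved the median of all genes to -0.045, 747 of 2128 calls were higher, against 943 of 1965. At a threshold of 0.01, 1042 genes were called, 502 higher and 540 lower, with 2 members higher. The correction without GalNAc-siNC mouse 1 called 1515 genes higher. The other negative acute phase genes gave 1 higher with total counts only, and 4 higher and 4 lower with the correction, with or without the block or GalNAc-siNC mouse 1. The positive acute phase genes gave 1 higher with no filter, DESeq2 and voom. The transcription factors gave 1 higher with no filter, DESeq2 and voom, 4 with the correction and with its block, and 6 higher and 4 lower with the correction without GalNAc-siNC mouse 1. The partners gave 2 lower with total counts only, the correction and its block, and 3 without that mouse and with the correction.

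With 1 mouse left out, the calls ranged from 1053 to 2864 genes, 520 to 1395 higher and 533 to 1469 lower. The 2864 were called without GalNAc-siNC mouse 1, against 1965 with all mice. Leaving out any other mouse gave fewer than 1965 calls, with the fewest, 1053, without GalNAc-siRnf10 mouse 1. The part of the smaller number of samples in these changes was not tested. The members higher ranged from 4 to 7, with 4 without GalNAc-siRnf10 mouse 1, 2 or 3 (Alb, Ttr, Rbp4 and Serpina6). Log2 fold changes ranged over 0.23 to 0.33 for Afm, 0.54 to 0.76 for Ttr, 0.47 to 0.69 for Rbp4, 0.15 to 0.20 for Apoh and 0.14 to 0.16 for Ahsg. The other negative acute phase genes ranged from 1 to 3 higher and from 1 to 3 lower. The positive ones ranged from 0 to 1 higher and from 15 to 18 lower (15 without GalNAc-siNC mouse 2). The transcription factors ranged from 0 to 2 higher and from 2 to 4 lower (4 without GalNAc-siNC mouse 1), and the partners from 1 to 3 higher.

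Afp had the fewest raw counts, 84 to 124 per library, and its coefficient of variation was 7.81% in GalNAc-siNC–treated and 24.4% in GalNAc-siRnf10–treated mice. With 3 mice a group the exact permutation test cannot reach a p below 0.1. The labels do not give litters or cages, so p-values cover the spread between these mice only.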
